A study of Caenorhabditis elegans with 8 samples.

Results

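The 8 genes described here are mec-2, mec-3, mec-4, mec-7, mec-10, mec-12, mec-17 and mec-18 of the nematode Caenorhabditis elegans, which were chosen by name as genes of the touch receptor neurons. All 8 were found among the 46748 gene identifiers of the count table and all 8 passed the filter on low counts. The series sequenced messenger RNA of whole N2 worms, hermaphrodites of the standard laboratory strain, and has 4 groups with 2 libraries apiece: arsenite at 5 days, water at 5 days, arsenite at 1 day and water at 1 day. The days are the labelled age of the worms. The labels give 100 nM for the arsenite and for the water samples alike, and no label states how long exposure lasted. Whether replicate libraries had separate worm cultures as their source is not stated, and each p-value therefore reflects only the spread between the libraries, which may be technical. The labels give no replicate numbers, and replicates 1 and 2 of a group are named here in the order of their library numbers.

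Touch receptor neurons are a small set of mechanosensory cells that run along the body wall and sense gentle touch. Their terminal genes are switched on by the homeodomain proteins UNC-86 and MEC-3. MEC-4 and MEC-10 form the pore of a mechanically gated sodium channel of the DEG/ENaC class, and MEC-2, a stomatin-like protein, binds this channel and raises its activity. The axons hold unusually thick microtubules built from MEC-12, an alpha-tubulin, and MEC-7, a beta-tubulin, and MEC-17 acetylates the alpha-tubulin. MEC-18 resembles firefly luciferase and other AMP-forming ligases. Not all of these genes are restricted to touch receptor neurons: mec-12 is also used by other neurons, and mec-3 and mec-10 also by the FLP and PVD sensory neurons. In RNA of whole worms, fewer cells of a type and less RNA per cell cannot be told apart.

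On the WBcel235 assembly 5 of the 8 genes (62.5%) lie on the X chromosome, against 14.5% of the 14449 tested genes. These are mec-2 (positions 5567754 to 5590830, plus strand), mec-4 (16803321 to 16807115), mec-7 (7774856 to 7776689), mec-10 (8465760 to 8470314) and mec-18 (4271165 to 4274216), the last 4 on the minus strand. The other genes are all on minus strands, mec-3 on chromosome IV from 10458816 to 10461867, mec-17 on chromosome IV from 7983802 to 7987183 and mec-12 on chromosome III from 3131574 to 3139234. The 8 genes are protein coding, with joined exons of 1032 nt for mec-17 up to 5764 nt for mec-2. In mec-2, mec-4, mec-12, mec-17 and mec-18, between 51 and 221 nt of exon are also exon of a gene on the other strand. The strand setting of the counting is not given in the sources used here, so reads from these stretches are uncertain.

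The libraries held 21598326 to 27317490 counts each. The 8 genes were all at low levels, and their counting error differed widely. Summed over all libraries there were 3425 counts of mec-12, 2434 of mec-7 and 1014 of mec-17, but 486 of mec-2, 305 of mec-18, 288 of mec-3, 223 of mec-10 and 126 of mec-4. Counting error alone gives a coefficient of variation, at a gene's mean count, of 4.83% for mec-12 and 25.2% for mec-4. A library with few counts of a gene can therefore not show a small change of it.

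Levels of different genes were compared as CPM (counts scaled to a common library size) per kilobase of joined exon. The tubulins stood highest in each group. In arsenite at 5 days mec-12 averaged 7.30 ± 0.854, mec-7 4.31 ± 0.293 and mec-17 4.06 ± 0.981 CPM per kilobase (SD, n = 2). In water at 5 days the averages were 9.01 ± 0.997 for mec-12, 5.70 ± 0.344 for mec-7 and 3.56 ± 0.218 for mec-17. The order mec-12, mec-7, mec-17 held in each of the 4 groups, and only mec-7 and mec-17 in arsenite at 5 days had libraries that overlapped. At 1 day mec-12 stood at 12.4 ± 0.426 in arsenite and 14.2 ± 1.22 CPM per kilobase in water, and mec-7 at 10.7 ± 0.435 in arsenite and 10.4 ± 0.194 in water (SD, n = 2).

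The other 5 genes stood lower per length, and none of their libraries reached a mec-17 library of the same group. In arsenite at 5 days the remaining genes ran from mec-3 at 1.80 ± 0.217 to mec-10 at 0.370 ± 0.0130 CPM per kilobase, and in water at 5 days from mec-3 at 1.26 ± 0.153 to mec-4 at 0.258 ± 0.0429. In arsenite at 1 day they ran from mec-3 at 0.801 ± 0.143 to mec-4 at 0.282 ± 0.0647, and in water at 1 day from mec-18 at 0.781 ± 0.285 to mec-4 at 0.179 ± 0.0982 (SD, n = 2). The gene mec-3 thus led these 5 genes at 5 days in both treatments, without overlap with the next gene, whereas at 1 day its libraries overlapped those of a neighbour in the order. The order among mec-2, mec-4 and mec-10 at 5 days was not resolved, since neighbouring genes overlapped.

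The first question was how the messages of these genes differed between worms of 5 days and 1 day. In both treatments the 2 tubulin genes and the tubulin acetyltransferase gene were lower at 5 days, the gene of the transcription factor MEC-3 was higher, and the channel genes and mec-18 did not pass the test. In arsenite 4 of the 8 genes were called by edgeR's quasi-likelihood test at an adjusted p under 0.05, against 59.6% of all genes tested. In water the same 4 were called, against 60.1% of all genes. For a set of 8 genes this is near the share of all genes. Lower at 5 days were 3 of 8, against 29.4% of all genes in arsenite and 30% in water, and higher was 1 of 8, against 30.3% of all genes in arsenite and 30.1% in water. The libraries of the 2 ages did not overlap for 5 of the 8 genes in arsenite, against 81.0% of all genes, and for 4 of the 8 in water, against 79.0%. The members' median log2 fold change was -0.29 in arsenite and -0.42 in water, against 0.01 over all tested genes in both. The 5-day libraries are numbered 23 to 26 and the 1-day libraries 31 to 34, so a library batch and age cannot be told apart.

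**Figure D1:**
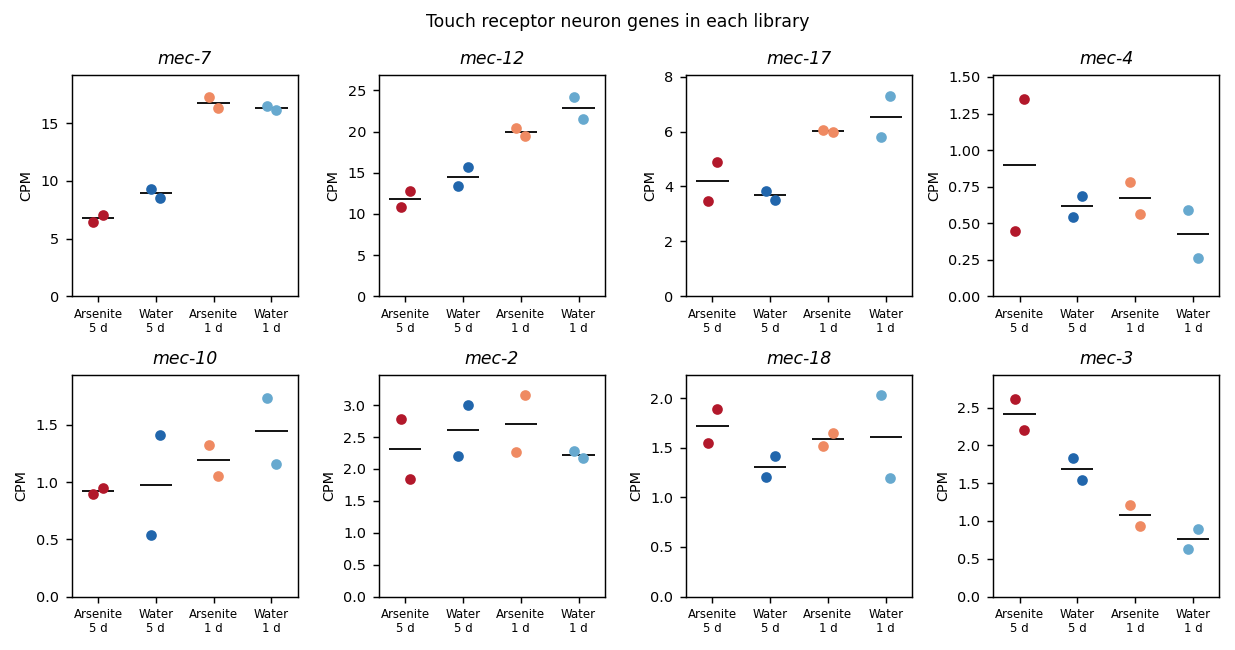
Level of each of the 8 genes in every library, in TMM-normalized CPM on a linear axis that starts at 0. Points are single libraries and bars the mean of 2. The 5-day groups lie below the 1-day groups for mec-7, mec-12 and mec-17 and above them for mec-3. The ages overlap for mec-2, mec-4 and mec-18 in both treatments, and for mec-10 in water but not in arsenite.

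The beta-tubulin gene mec-7 had the smallest p of the 8 in both treatments. It stood at 6.42 and 7.07 CPM in arsenite at 5 days, 9.30 and 8.53 in water at 5 days, 17.3 and 16.3 in arsenite at 1 day and 16.5 and 16.1 in water at 1 day. Each 5-day library lay well below each 1-day library. The log2 fold change was -1.31 (SE 0.12, edgeR adjusted p = 3.801e-09) in arsenite and -0.87 (SE 0.12, edgeR adjusted p = 1.399e-06) in water. Its 4 replicate pairs differed by less than counting alone would give (chi-square over degrees of freedom 0.590). This ratio was 0.855 for mec-3 and 1.699 for mec-18, but 2.58 for mec-17, 2.77 for mec-2, 3.22 for mec-12, 3.26 for mec-10 and 3.84 for mec-4, so replicates of these 5 genes spread beyond counting error.

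The alpha-tubulin gene mec-12 fell as well. It had 10.8 and 12.7 CPM in arsenite at 5 days, 13.4 and 15.7 in water at 5 days, 20.5 and 19.5 in arsenite at 1 day and 24.3 and 21.5 in water at 1 day. Again no 5-day library reached a 1-day library. The log2 fold change was -0.76 (SE 0.12, edgeR adjusted p = 6.781e-06) in arsenite and -0.66 (SE 0.11, edgeR adjusted p = 3.361e-05) in water. In mec-12, 76 nt of exon are shared with Y53G8B.1 on the opposite strand, which averaged 1.67 CPM in arsenite and 1.59 CPM in water at 5 days, and 3.48 CPM in arsenite and 3.15 CPM in water at 1 day. Whether reads of other tubulin genes entered the mec-7 and mec-12 counts was not tested.

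The acetyltransferase gene mec-17 fell too. It had 3.48 and 4.91 CPM in arsenite at 5 days, 3.84 and 3.52 in water at 5 days, 6.05 and 5.97 in arsenite at 1 day and 5.79 and 7.29 in water at 1 day. The groups did not overlap in either treatment. The fall was called in water (log2 fold change -0.83, SE 0.19, edgeR adjusted p = 0.000508) and in arsenite (-0.53, SE 0.18, edgeR adjusted p = 0.0175). The arsenite call depended on the settings: DESeq2 gave an adjusted p of 0.0594, and edgeR gave 0.236 when replicate 1 of arsenite at 5 days was left out (log2 fold change -0.30). Leaving out either arsenite library of 1 day raised the edgeR adjusted p to 0.0718 (replicate 1) and 0.0622 (replicate 2). In mec-17, 51 nt of exon are shared with arf-5 on the opposite strand, which stood far above mec-17. The partner arf-5 averaged 230.7 CPM in arsenite and 236.4 CPM in water at 5 days, and 228.5 CPM in arsenite and 231.3 CPM in water at 1 day. Whether reads of arf-5 entered the mec-17 counts was not tested.

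The gene mec-3 moved the other way. There were 64 and 49 counts in arsenite at 5 days, 44 and 36 in water at 5 days, 31 and 25 in arsenite at 1 day and 15 and 24 in water at 1 day. Per library size this was 2.62 and 2.21 CPM in arsenite and 1.83 and 1.54 CPM in water at 5 days, and 1.21 and 0.938 CPM in arsenite and 0.634 and 0.897 CPM in water at 1 day. Each 5-day library was above each 1-day library. The log2 fold change was 1.17 (SE 0.28, 95% interval 0.60 to 1.74, edgeR adjusted p = 0.000878) in arsenite and 1.13 (SE 0.31, interval 0.49 to 1.77, edgeR adjusted p = 0.00327) in water. These values rest on few counts, but replicate pairs differed by no more than counting error (chi-square over degrees of freedom 0.855).

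**Figure D2:**
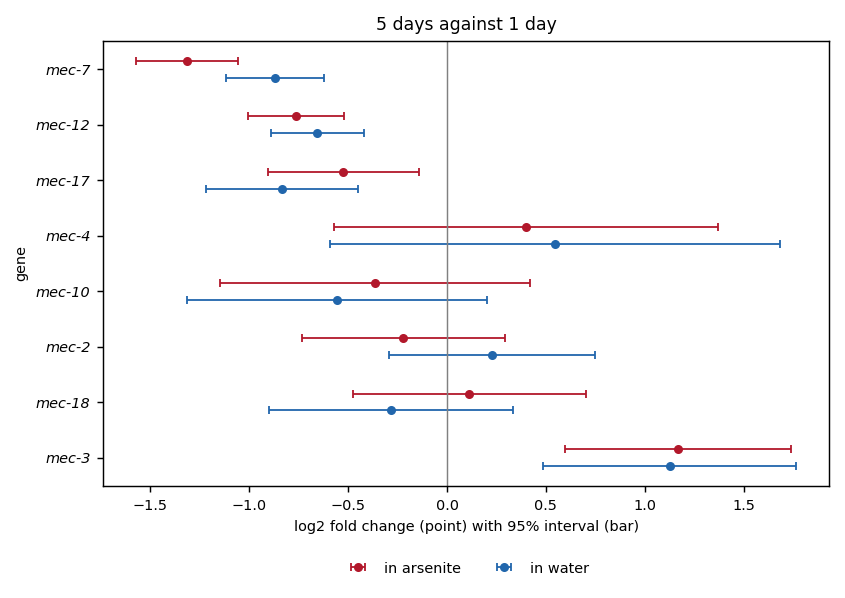
Log2 fold change of each gene between 5 days and 1 day in arsenite and in water, as points with 95% intervals from the edgeR fit. The intervals of mec-7, mec-12 and mec-17 lie below 0 and those of mec-3 above 0 in both treatments, and those of the other 4 genes include 0.

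Neither pore subunit of the touch channel passed the test between the ages. For mec-4 there were 11 and 30 counts in arsenite and 13 and 16 in water at 5 days, and 20 and 15 in arsenite and 14 and 7 in water at 1 day. The groups overlapped, and the log2 fold change was 0.40 with an interval of -0.57 to 1.37 in arsenite and 0.55 with an interval of -0.59 to 1.68 in water. For mec-10 there were 22 and 21 counts in arsenite and 13 and 33 in water at 5 days, and 34 and 28 in arsenite and 41 and 31 in water at 1 day. Both arsenite libraries at 5 days lay below both at 1 day, while the water groups overlapped. Its log2 fold change was -0.36 (interval -1.15 to 0.42) in arsenite and -0.56 (interval -1.31 to 0.20) in water. The water value of mec-10 depended on single libraries: it was -1.40 (edgeR adjusted p = 0.0112) without replicate 2 of water at 5 days and -0.022 (edgeR adjusted p = 0.965) without replicate 1. For mec-4 in water, leaving out 1 library gave 0.048 to 1.21. At this depth neither gene's intervals excluded a 2-fold change, nor no change. In mec-4, 78 nt of exon are shared with aak-2 on the opposite strand, which stood far above mec-4. The partner aak-2 averaged 73.7 CPM in arsenite and 76.4 CPM in water at 5 days, and 73.1 CPM in arsenite and 71.1 CPM in water at 1 day. Whether reads of aak-2 entered the few mec-4 counts was not tested.

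The channel partner gene mec-2 stood at 2.78 and 1.85 CPM in arsenite and 2.21 and 3.002 CPM in water at 5 days, and at 2.26 and 3.15 CPM in arsenite and 2.28 and 2.17 CPM in water at 1 day. Its log2 fold change was -0.22 (interval -0.74 to 0.29) in arsenite and 0.23 (interval -0.30 to 0.75) in water. For mec-18 there were 1.55 and 1.89 CPM in arsenite and 1.21 and 1.42 CPM in water at 5 days, and 1.52 and 1.65 CPM in arsenite and 2.03 and 1.20 CPM in water at 1 day, with log2 fold changes of 0.11 (interval -0.47 to 0.70) in arsenite and -0.28 (interval -0.90 to 0.33) in water. Groups of both genes overlapped in each treatment. The intervals of mec-2 and mec-18 exclude a 2-fold change in either direction.

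Since the members differed in direction, their ratios within a library were compared, which no scaling between libraries can change. These 5 ratios were chosen after the values had been seen and are given as a description, with no test. The counts of mec-3 were 9.03% and 6.69% of the counts of all 8 genes in arsenite at 5 days, 5.58% and 4.32% in water at 5 days, 2.38% and 1.91% in arsenite at 1 day and 1.18% and 1.77% in water at 1 day. The lowest 5-day share, 4.32%, was above the highest 1-day share, 2.38%. Their 95% Wilson intervals, which cover counting error only, overlapped (3.13% to 5.92% and 1.68% to 3.36%). The log2 ratio of mec-3 to the other 7 genes summed averaged -3.92 ± 0.479 at 5 days and -5.81 ± 0.431 at 1 day (SD, n = 4 each). The difference was 1.89 over both treatments, 1.95 within arsenite and 1.82 within water.

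**Figure D3:**
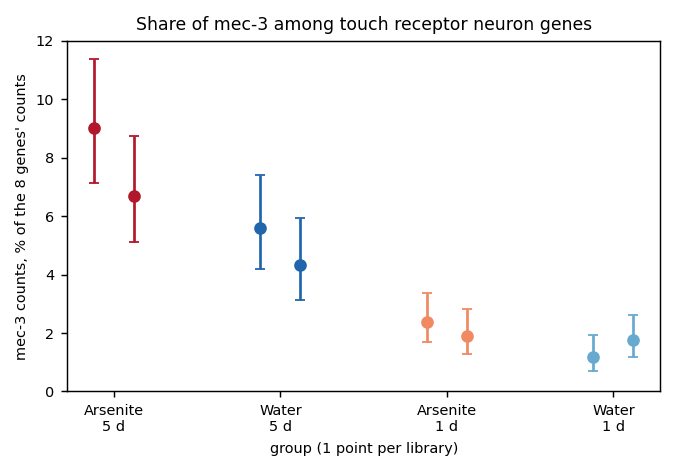
Counts of mec-3 as a percentage of the counts of all 8 genes, 1 point per library with its 95% Wilson interval. The 5-day libraries lie between 4.32% and 9.03%, all above the 1-day libraries at 1.18% to 2.38%.

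The ratio of mec-3 to mec-7 alone was 2.26 higher at 5 days on the log2 scale and that of mec-3 to mec-17 was 1.85 higher, which restates the opposite changes of these genes given above. The log2 ratio of the beta-tubulin gene mec-7 to the alpha-tubulin gene mec-12 was -0.75 ± 0.159 at 5 days and -0.37 ± 0.146 at 1 day. The 2 ages overlapped in this ratio, and the difference of -0.38 was -0.55 within arsenite and -0.22 within water. The log2 ratio of the pore subunits mec-4 to mec-10 was -0.38 ± 0.768 at 5 days and -1.34 ± 0.637 at 1 day (SD, n = 4 each), and the ages overlapped.

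Other genes linked to touch receptor neurons were then examined, among them regulators that hold touch neuron genes back. Of all tested genes 29.4% were called lower and 30.3% higher at 5 days in arsenite, with nearly the same shares in water. The counts that fell or rose in this list and in every list below are to be read against these shares. No list was tested against them. Of the genes for channel partners and matrix, 5 of 6 tested members fell and 1 rose, in arsenite and in water alike, with a median log2 fold change of -0.98 in arsenite and -0.82 in water, against 0.01 in all tested genes in both. The gene mec-5, which encodes a collagen that surrounds the touch neurons, averaged 7.16 ± 0.820 CPM in arsenite and 7.53 ± 0.390 CPM in water at 5 days, and 16.2 ± 1.91 CPM in arsenite and 17.6 ± 0.682 CPM in water at 1 day (SD, n = 2). The gene mec-6, whose product is a chaperone-like partner of the channel, fell by 1.55 (SE 0.24) in arsenite and by 1.49 (SE 0.24) in water on the log2 scale. The matrix genes mec-1 and mec-9 fell by 0.74 and 0.79 in arsenite and by 0.54 and 0.70 in water, and unc-24, a stomatin-like gene, by 1.23 in arsenite and by 0.94 in water. The gene that rose, crt-1, encodes the general chaperone calreticulin and had a log2 fold change of 0.54 in arsenite and 0.56 in water. The related gene poml-1 did not pass the filter, with 3 to 7 counts per group. The RNA came from whole worms, so the cells in which these messages fell are not known. Most hypodermis markers and all body wall muscle markers, given below, also fell, and their part in these changes was not tested.

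Among 10 genes of cell fate and regulation, 8 fell in arsenite and 7 in water, and 0 rose. The gene unc-86, whose product acts with MEC-3, averaged 3.16 ± 0.821 CPM in arsenite and 3.05 ± 0.958 CPM in water at 5 days, and 5.10 ± 1.81 CPM in arsenite and 5.17 ± 0.0812 CPM in water at 1 day (SD, n = 2). Its fall was called in arsenite (log2 fold change -0.70, edgeR adjusted p = 0.0356) and in water (-0.76, edgeR adjusted p = 0.0243), while mec-3 rose; unc-86 was named after its values had been seen. The gene alr-1, which encodes a homeodomain protein that keeps mec-3 expression on in touch neurons, had a log2 fold change of -1.33 (SE 0.21) in arsenite and -0.98 (SE 0.20) in water. The gene egl-46, whose zinc finger product holds back touch neuron genes in FLP cells, fell by 2.38 in arsenite and by 2.23 in water on the log2 scale, and zag-1, whose product keeps egl-46 off in touch neurons, by 1.55 in arsenite and by 1.30 in water.

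The other touch cytoskeleton genes moved both ways. In arsenite 3 of 9 tested members rose and 4 fell, and in water 2 rose and 4 fell. The gene ptl-1, the tau-like microtubule-binding protein found in touch neurons, averaged 8.25 ± 0.590 CPM in arsenite and 9.37 ± 0.756 CPM in water at 5 days, and 4.46 ± 0.529 CPM in arsenite and 4.28 ± 0.233 CPM in water at 1 day (SD, n = 2), opposite in direction to mec-7 and mec-12. The axonal ankyrin unc-44 fell by 0.74 in arsenite and by 0.65 in water on the log2 scale, and the spectrin genes unc-70 and spc-1 by 0.68 and 0.40 in arsenite and by 0.61 and 0.39 in water.

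Members of the same gene families were examined next, several of them widely expressed. Of the 8 other alpha-tubulin genes, 3 rose and 2 fell in arsenite and 4 rose and 2 fell in water. The main alpha-tubulin genes tba-1 and tba-2 rose, by 0.45 and 0.25 in arsenite and by 0.54 and 0.31 in water on the log2 scale, while tba-4 and tba-9 fell, with -1.88 and -1.49 in arsenite and -1.82 and -0.90 in water. Of the 5 other beta-tubulin genes, 2 rose and 1 fell in each treatment, with tbb-2, tbb-6 and ben-1 at 0.20, 2.99 and -0.52 in arsenite and at 0.25, 3.36 and -0.54 in water. For lists of 8 and 5 genes, these tubulin counts are not far from the shares of all tested genes. Similar tubulin genes may share reads, so single tubulin values, also those of mec-7 and mec-12, are uncertain. In arsenite at 5 days tba-2 averaged 1240 CPM and tbb-2 1811 CPM, far above mec-12 and mec-7. Of 8 tested genes of other tubulin-modifying enzymes, 1 rose and 1 fell in arsenite and 0 rose and 1 fell in water. The second alpha-tubulin acetyltransferase gene, atat-2, did not pass, with 0.35 (SE 0.22) in arsenite and 0.32 (SE 0.22) in water.

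Of 24 tested DEG/ENaC channel genes other than mec-4 and mec-10, 2 rose and 11 fell in arsenite and 1 rose and 8 fell in water. One that fell in both, del-6, averaged 50.5 CPM in arsenite and 53.5 CPM in water at 5 days, and 93.3 CPM in arsenite and 89.6 CPM in water at 1 day. Of 6 stomatin genes, sto-4 rose (0.65 in arsenite and 0.68 in water) and sto-1 fell (-0.41 in arsenite and -0.42 in water), and unc-1 fell in arsenite (-0.68).

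Markers of neurons in general did not share a direction. Of 12 genes used by all neurons, 1 rose and 4 fell in arsenite and 5 rose and 3 fell in water. The summed level of this list was 491 to 525 CPM in arsenite and 527 to 552 CPM in water at 5 days, and 370 to 391 CPM in arsenite and 366 to 386 CPM in water at 1 day. The vesicle synaptobrevin gene snb-1 alone averaged 255.6 CPM in arsenite and 269.7 CPM in water at 5 days, and 123.9 CPM in arsenite and 122.5 CPM in water at 1 day. The higher sum at 5 days thus rests largely on snb-1. The median log2 fold change of the 12 genes was 0.007 in arsenite and -0.10 in water. The kinesin gene unc-104 fell, by 0.56 in arsenite and by 0.61 in water. Of 12 ciliated neuron genes 1 rose and 5 fell in each treatment. The 8 touch receptor neuron genes summed to 28.99 to 32.95 CPM in arsenite and 32.8 to 35.8 CPM in water at 5 days, and to 49.1 to 50.8 CPM in arsenite and 50.6 to 53.9 CPM in water at 1 day. Most of this sum came from mec-12, mec-7 and mec-17, which averaged 11.77, 6.74 and 4.19 CPM in arsenite at 5 days. At 1 day in arsenite they averaged 19.96, 16.77 and 6.01 CPM. In water they averaged 14.52, 8.91 and 3.675 CPM at 5 days and 22.88, 16.32 and 6.54 CPM at 1 day. The lower sum at 5 days thus rests on these 3 genes and not on the whole set.

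Of the 4 markers of FLP and PVD neurons, the cells that share mec-3 and mec-10, 3 fell in each treatment, dma-1, egl-44 and egl-46. Of these, egl-44 and egl-46 were already counted among the genes of cell fate and regulation. The other marker, hpo-30, did not pass, with a log2 fold change of 0.25 in arsenite and 0.34 in water. Of acetylcholine neuron genes 1 of 6 fell in each treatment, of GABA genes 2 of 5 and of dopamine and serotonin genes 2 of 6, and 0 of these rose. The glutamate transporter gene eat-4, which marks neurons that use the transmitter of touch receptor neurons, was called lower in arsenite (log2 fold change -0.64, edgeR adjusted p = 0.0486) and not in water (-0.13, edgeR adjusted p = 0.699). The change of eat-4 with age was not shown to differ between the treatments (difference -0.51, SE 0.39, edgeR adjusted p = 0.9999).

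Markers of other cell types also differed with age. Of 9 intestine markers 7 fell and 1 rose in arsenite and 6 fell and 1 rose in water, and of 8 hypodermis markers 5 fell and 1 rose in arsenite and 6 fell and 1 rose in water. All 10 body wall muscle markers fell in both treatments, to a summed 2168 to 2197 CPM in arsenite and 2220 to 2467 CPM in water at 5 days, against 6989 to 7472 CPM in arsenite and 7198 to 7254 CPM in water at 1 day. Of 8 zygotic embryo markers 5 fell and 1, end-3, rose in arsenite and 5 fell and 0 rose in water, and the sum was 280 to 287 CPM in arsenite and 277 to 279 CPM in water at 5 days, against 336 to 345 CPM in arsenite and 323 to 342 CPM in water at 1 day, with no marker at 0. Of 6 tested sperm markers 2 fell in each treatment. Of 10 germline markers 6 rose and 2 fell in arsenite and 4 rose and 2 fell in water, among them pie-1 with 0.81 in arsenite and 0.86 in water and glh-1 with -0.37 in arsenite and -0.34 in water. The germline markers summed to 3996 to 4076 CPM at 5 days and 3905 to 4074 CPM at 1 day over both treatments. The part of these shifts in the changes of the touch receptor neuron genes was not tested. Genes on X, where 5 of the 8 lie, were called lower more often than higher: 812 lower and 440 higher of 2096 in arsenite, and 780 lower and 452 higher in water. Over all 14449 genes 4245 were lower and 4371 higher in arsenite, and 4337 lower and 4348 higher in water. Of the 3 members called lower mec-7 is on X, while mec-12 and mec-17 are on autosomes, and the other 4 members on X were not called.

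**Figure D4:**
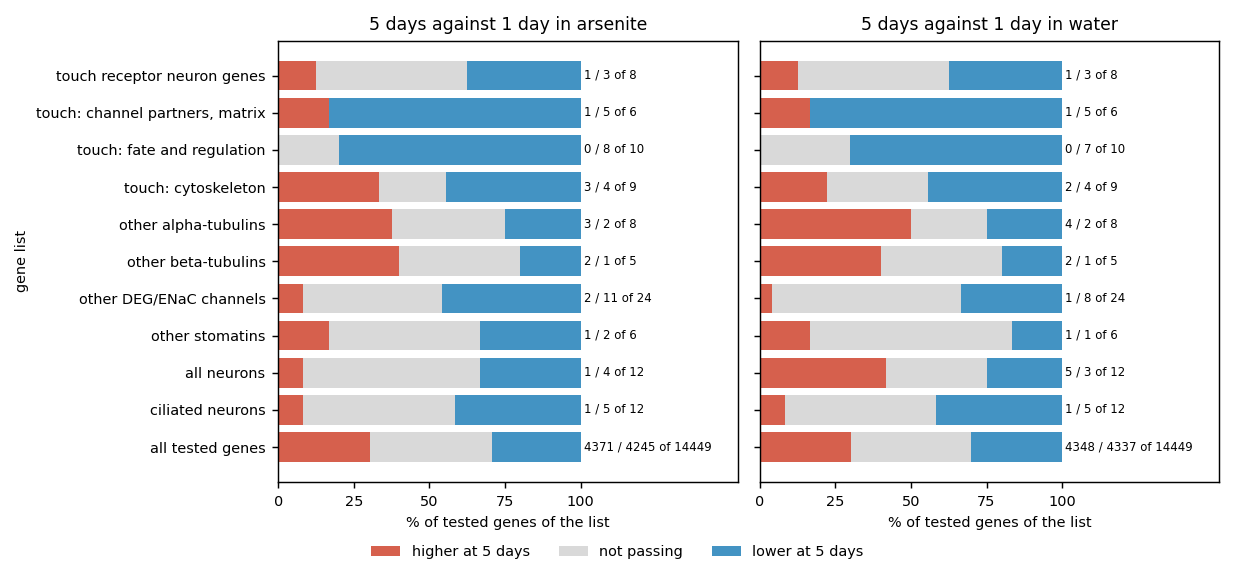
Share of each gene list called higher, called lower or not passing between 5 days and 1 day, in arsenite and in water, with the numbers higher and lower of those tested written beside each bar. The touch receptor neuron genes have 1 higher and 3 lower of 8 in both treatments, and all tested genes are near 30% in each direction.

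The second question was whether arsenite changed these messages. At 5 days 0 of the 8 genes passed edgeR's test, against 0.0138% of all genes, and DESeq2 and limma voom also called 0 of them. An unadjusted p under 0.05 was found for mec-7 and mec-12, against 3.97% of all genes. The values of these genes by library are those given above. For mec-7 both arsenite libraries at 5 days lay below both water libraries, with a log2 fold change of -0.40 (SE 0.13, interval -0.68 to -0.13, edgeR adjusted p = 0.999). Both arsenite libraries of mec-12 also lay below both water libraries, with -0.30 (SE 0.12, interval -0.56 to -0.05, edgeR adjusted p = 0.999), and mec-3 was higher in both arsenite libraries, with 0.51 (SE 0.26, interval -0.03 to 1.05). Groups did not overlap for 4 of the 8 genes (these 3 and mec-18), against 29.5% of all genes.

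At 1 day 0 of the 8 genes passed edgeR's test, where 0% of all genes did, and 0 had an unadjusted p under 0.05, against 1.65% of all genes. DESeq2 and limma voom called 0 as well. The fold changes ran from -0.27 for mec-10 to 0.67 for mec-4. For mec-7 the value was 0.04 with an interval of -0.19 to 0.27, and for mec-12 it was -0.20 with an interval of -0.42 to 0.03. The level of mec-3 was again higher in both arsenite libraries, with 0.47 (SE 0.33, interval -0.21 to 1.15). Groups did not overlap for 2 of the 8 genes, mec-3 and mec-12, against 28.5% of all genes.

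**Figure D5:**
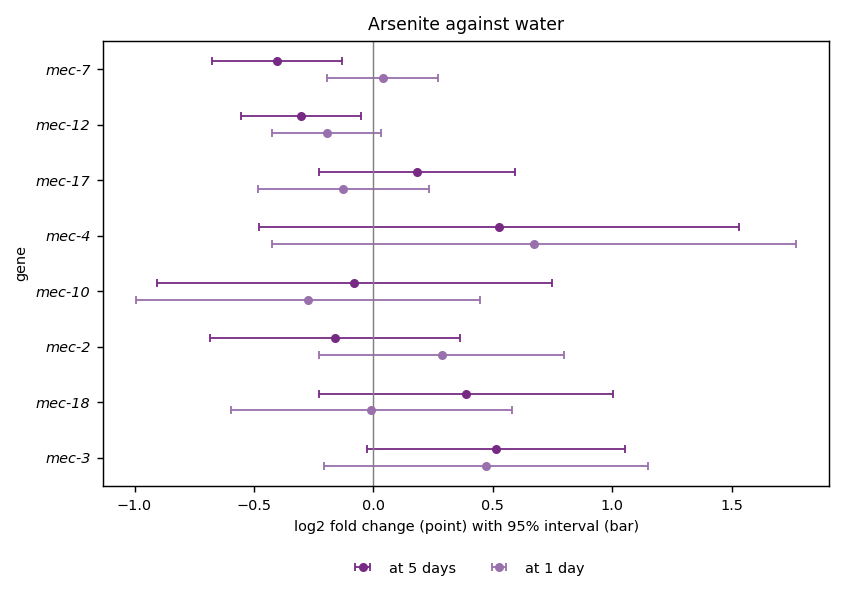
Log2 fold change of each gene between arsenite and water at 5 days and at 1 day, as points with 95% intervals from the edgeR fit. The interval excludes 0 for mec-7 and mec-12 at 5 days, but 0 of the 8 genes passed after adjustment over all genes at either age.

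Averaged over both ages, 0 of the 8 genes passed, where 0% of all genes did, with an edgeR adjusted p of 0.9999 for each, and DESeq2 and limma voom called 0 as well. An unadjusted p under 0.05 was found for mec-3 (log2 fold change 0.49, SE 0.21), mec-7 (-0.18, SE 0.09) and mec-12 (-0.25, SE 0.08), against 2.85% of all genes. The averaged value is built from the same libraries as the values at each age and is no separate evidence. For the change of the arsenite effect with age, the test was passed by 0 of the 8 genes and 0% of all genes in the edgeR test, DESeq2 and limma voom called 0 of them, and 1 of the 8, mec-7, had an unadjusted p under 0.05, against 2.55% of all genes (-0.44, SE 0.17, edgeR adjusted p = 0.9999). It was thus not shown that mec-7 responded differently at the 2 ages. When a term for libraries of adjacent number was added, 0 of the 8 genes passed in any arsenite comparison, and mec-7 at 5 days had -0.41 with an edgeR adjusted p of 0.406.

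Genes with a pattern nearest to the mean of the 8 were sought among 11878 genes by the root mean square difference of centred log2 CPM over the 8 libraries. The nearest were set-16 (0.043), a histone methyltransferase gene, F55D12.5 (0.052), gei-4 (0.056), sfa-1 (0.057), a splicing factor gene, and Y14H12A.1 (0.059). The mean joins opposite changes: it lay between -0.25 and 0.19 in each library, and the 8 genes themselves were 0.19 (mec-18) to 0.72 (mec-3) from it.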

How the data were processed

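The deposited table holds whole-number read counts per WormBase gene identifier. The submitters' processing notes list featureCounts 1.4.6-p4, STAR 2.4.1d and CASAVA 1.7, and WBcel235 as the genome build. How strand and multiply mapped reads were handled, and which annotation was counted, is not given in the sources used here. Libraries were made with an Illumina kit for mRNA, per the labels' protocols. A deposited RPKM table was not used. Symbols were taken from a reference table (43693 identifiers matched) and positions and exon lengths from the Ensembl 115 annotation of WBcel235. No sequences were at hand.

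The counts went into edgeR 4.0.16 (R 4.3.3): filterByExpr by group (minimum count 10, minimum total 15, 14449 genes kept), TMM scaling, and a robust quasi-likelihood test. The test had 1 mean per group and, for each gene, a spread from all 8 libraries that was moderated over all tested genes. Benjamini-Hochberg adjustment ran over every tested gene, with calls under 0.05. CPM are TMM-normalized. Standard errors were derived from each F statistic, and intervals are 95% intervals. DESeq2 1.42.0, limma 3.58.1 (voom), other scalings, filters and sample choices were alternatives. The fitting code was tested on simulated counts. Of each other gene list up to 6 members per age comparison, those with the smallest p, could be named. The genes, lists and tests were chosen with earlier results of these data known.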

Additional observations from a re-analysis of the deposited data

How the results depend on the processing

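The number of touch receptor neuron genes called was 3 to 5 in the age comparisons and 0 in each arsenite comparison under every alternative run. The 4 genes called with age kept direction and call in 71 of 72 values from other scalings, filters and tools and in 61 of 64 with 1 library left out. The exceptions, all mec-17 in arsenite, are given above. No paired analysis was possible because the labels give no replicate numbers or other pairing of libraries. The term for adjacent library numbers, run for the arsenite comparisons only, acts as a block but rests on the numbering and not on a stated pairing. Scalings moved the median of all genes by at most 0.03 on the log2 scale. The stricter filter removed mec-4, and the few counts of mec-4 and mec-10 limit their values.

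Signs turned only in results that did not pass the test. In the arsenite comparison at 1 day, mec-18 had 0.045 by limma voom and 0.0014 with adjacent library numbers, and at 5 days mec-10 had 0.076 by limma voom. Leaving out 1 library gave the following log2 ranges, and the cause was not tested. For arsenite against water at 5 days they were -0.62 to 0.75 for mec-10, -0.093 to 0.41 for mec-17, -0.50 to 0.084 for mec-2 and -0.45 to 1.13 for mec-4. At 1 day they were -0.55 to 0.034 for mec-10, -0.28 to 0.051 for mec-17, -0.35 to 0.41 for mec-18 and -0.0053 to 0.080 for mec-7. Averaged over ages they were -0.45 to 0.24 for mec-10, -0.11 to 0.14 for mec-17 and -0.11 to 0.19 for mec-2. For the change of that effect with age they were -0.35 to 1.02 for mec-10, -0.24 to 0.00099 for mec-12, -0.017 to 0.74 for mec-18, -0.24 to 0.26 for mec-3 and -1.13 to 0.45 for mec-4. For 5 days against 1 day they were, in arsenite, -0.046 to 0.24 for mec-18, -0.56 to 0.038 for mec-2 and -0.59 to 1.00 for mec-4. In water they were -0.63 to 0.13 for mec-18 and -0.011 to 0.43 for mec-2.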
